A study of Mus musculus with 8 samples.

Results

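Transcripts of 10 genes of the bone-forming programme were counted in single cells of the embryonic mouse forelimb. The genes were chosen by symbol and comprise the RUNX factors *Runx1*, *Runx2* and *Runx3*, the zinc finger factor *Sp7* (osterix), the bone matrix and mineralisation genes *Alpl*, *Ibsp*, *Spp1* and *Bglap*, and the homeobox genes *Dlx5* and *Dlx6*. All 10 were found among the 28001 features of the tables. They were counted as unique molecular identifiers (UMIs, 1 per captured transcript) in 53085 of 57469 deposited cells, those with at least 3000 UMIs and at most 10% of them mitochondrial. All embryos were C57BL/6J Hic1CreERT2/CreERT2;Rosa26LSLtdTomato/tdTomato, in which tamoxifen-activated Cre made from the *Hic1* locus switches on the red reporter tdTomato, and all dams had received 7.5 mg tamoxifen at embryonic day (E) 10. 6 libraries held sorted cells that carried tdTomato and lacked endothelial and blood lineage markers, 1 each from E11.5, E12.5, E13.5 and E14.5 forelimbs and 2 from E16.5. The E16.5 proximal library came from the distal stylopod, proximal zeugopod and elbow, and the E16.5 distal library from the distal zeugopod and autopod. The other 2 libraries, whole 1 and whole 2, held all lineage-negative cells of E11.5 forelimbs, with and without tdTomato. Each library was made from pooled forelimbs, so the spread between embryos was not measured.

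Bone forms in the limb on and around a cartilage template. Cells of the perichondrium, the sheath around the cartilage, and cells that derive from hypertrophic cartilage become osteoblasts. *Runx2* is required for this step, and *Sp7* acts after it. Both are also made by maturing cartilage cells, so a cell with both need not be an osteoblast precursor. Osteoblasts make alkaline phosphatase (*Alpl*), which frees phosphate for mineral, and the secreted matrix proteins bone sialoprotein (*Ibsp*), osteopontin (*Spp1*) and, last, osteocalcin (*Bglap*). *Dlx5* and *Dlx6* lie side by side on one chromosome and act upstream in limb patterning and bone formation. *Runx1* and *Runx3* share the DNA-binding domain of *Runx2* and are also used in cartilage, skin, blood and sensory neurons.

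Total filtered UMIs ran from 31500092 in the E11.5 sorted library to 234893903 in the E16.5 proximal library, with median UMIs per cell from 6788 to 18473. An earlier reagent version was used up to E13.5 than for E14.5 and E16.5, and dissociation also changed between E12.5 and E13.5, so these and developmental stage cannot be told apart. Levels are given as CPM (UMIs of the gene per 1000000 UMIs summed) with exact Poisson 95% intervals, and shares of cells with exact Clopper-Pearson 95% intervals. Both cover counting error only. With 1 library per sorted group there is no replicate and no test between them, and a fold change is a description of those libraries. In summed libraries, fewer cells of a type and less RNA per cell cannot be told apart. Of 6 immune markers the sum was between 0.881 and 7.02 CPM in each library, and of 5 osteoclast markers, with *Dcstamp* at 0 in every library, it was 19.6 CPM in E16.5 proximal against 0.975 to 5.73 in the other 7. No cell of any library had at least 3 of the 5 osteoclast markers. Of 8 osteoblast markers the sum was 219 CPM at E11.5, then 177 at E12.5, 147 by E13.5 and 125 by E14.5. It was 81.5 in E16.5 proximal, 116 in E16.5 distal, and 130 and 113 in the whole limb libraries. *Mepe* was at 0 in every library and *Dmp1* at 0 in E11.5 and whole 2. No cluster carried an osteoblast-like name, while 434 E16.5 proximal and 668 distal cells had at least 3 of those markers. The part of these cell types in the results was not tested. Epithelial markers summed to 3476 CPM in the E16.5 proximal library and to 626 in the distal one, against 53.8 to 127 in the other 6.

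The 3 RUNX genes are introduced by a shared sequence. A promoter window of 250 bases before and 50 after the RefSeq start (GRCm38.p6) was at hand for 7 of the 10 genes, as 11 windows, and not for *Sp7*, *Dlx5* or *Dlx6*. The windows were searched on both strands for the RUNX core TGTGGT (reverse ACCACA), the homeodomain core TAATTG (reverse CAATTA) and the GC box GGGCGG (reverse CCGCCC), which do not overlap one another. One window each of *Runx1*, *Runx2* and *Runx3* held ACCACA as a pair with the letters ga between. They are shown because the same arrangement stands in all 3 paralogs, with ACCACA in capitals.
Runx1, chr16:92826025-92826052, minus strand: taaacaACCACAgaACCACAagttgggt
Runx2, chr17:44814583-44814610, minus strand: caaacaACCACAgaACCACAagtgcggt
Runx3, chr4:135120505-135120532, plus strand: ccctcaACCACAgaACCACAaggccagg
Counted from the RefSeq start, the pair began at +29 in *Runx1*, at +24 in *Runx2* and at -134 in *Runx3*, and *Runx2* held one more ACCACA at -80. A RUNX core was found in 5 of the 11 windows, 1 each in 5 of the 7 genes, and in 16.8% of all 32851 mouse promoter windows. These matches are letters in a window and no measurement of binding.

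*Runx1*, best known from blood formation, was higher in each later sorted library. It was at 2.10 CPM at E11.5, then 3.69 at E12.5, 5.86 by E13.5, 12.1 by E14.5, 32.8 in the E16.5 proximal library and 115 in the E16.5 distal library, and at 6.61 and 7.04 in the whole limb libraries. The 6 sorted intervals did not overlap. E16.5 proximal was 15.6-fold (12.3 to 20.2) over E11.5. With every cell thinned to 3000 UMIs, 0.600% of cells carried a *Runx1* UMI at E11.5, 8.90% in the E16.5 proximal library and 22.6% in the distal one.

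At E16.5 the highest *Runx1* levels were in clusters with dermal fibroblast markers, but not every such cluster was high. Clusters were built for each stage without the 10 genes, and a cluster is called X-like only where it raised at least 3 markers of that class and no other class had more markers among its top 10 genes. In dermal fibroblast-like cluster 22, led by *Gal*, *Sox2* and *Sox18*, *Runx1* was at 152 CPM (131 to 176) proximally and at 389 (353 to 429) distally. In cluster 7, unnamed and led by *Kcna4* with all 7 dermal fibroblast markers raised, it was at 377 CPM in 1054 distal cells, and this cluster held 35.3% of the distal *Runx1* UMIs in 12.5% of the cells. Dermal fibroblast-like cluster 9 was lower, with *Runx1* at 44.1 CPM proximally and 53.3 distally, against 71.4 and 89.8 in tenocyte-like cluster 4. Mitotic-like cluster 12 was at 92.6 and 353 CPM. At E14.5 dermal fibroblast-like cluster 5 led with 44.8 CPM, and chondrocyte-like cluster 12 followed with 27.3. In the whole limb libraries the highest level was in myogenic-like cells, at 22.6 and 25.02 CPM.

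*Runx3* was also higher at later stages and had its highest E16.5 level in the same dermal cluster. It was at 0.762 CPM at E11.5, then 2.28 at E12.5, 3.52 by E13.5, 8.59 by E14.5, 8.70 in E16.5 proximal, 19.7 in E16.5 distal, and 2.07 and 2.40 in the whole limb libraries. E14.5 and E16.5 proximal overlapped. In cluster 22 it reached 177 CPM both proximally (155 to 203) and distally (152 to 204). Dermal fibroblast-like cells held 54.5% of the *Runx3* UMIs at E14.5 in 9.03% of the cells, and 55.4% in E16.5 proximal in 10.4% of the cells. In E16.5 distal they held 17.9% in 9.21% of the cells, while unnamed cluster 7 held 49.5% in 12.5%, at 90.3 CPM. At E13.5, before those clusters led, the highest *Runx3* level was 19.1 CPM in cluster 2, the unnamed cluster that also led for *Runx2*.

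*Runx2*, the factor required for osteoblast formation, was highest in the sorted cells at E13.5. It was at 4.54 CPM at E11.5, then 16.6 at E12.5, 22.3 by E13.5, 11.9 by E14.5, 8.31 in E16.5 proximal, 13.3 in E16.5 distal, and 10.2 and 11.99 in the whole limb libraries. No 2 of the 6 sorted intervals overlapped, while that of whole 2 (11.1 to 12.98) held or touched those of E14.5 and E16.5 distal. Thinned to 3000 UMIs, 1.26% of cells carried a *Runx2* UMI at E11.5, 4.92% at E13.5 and 2.74% in E16.5 proximal.

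Within each later stage 1 or 2 clusters held much of the *Runx2* signal. At E13.5 cluster 2, led by *Pcp4*, *Igfbp7* and *Anxa1* and unnamed though it raised the perichondrial markers *Ptch1*, *Gli1* and *Foxc1*, was at 107 CPM (96.6 to 118) and held 37.7% of the *Runx2* UMIs in 8.13% of the cells. At E14.5 cluster 3, with *Pcp4* and *Erc2* among its leading genes and also unnamed, was at 85.2 CPM and held 46.3% in 7.62% of the cells. At E16.5 the highest proximal level was 67.8 CPM in perichondrial-like cluster 18, with *Omd* and *Otor* among its leading genes (391 proximal and 14 distal cells), and the highest distal level was 59.6 CPM in distal mesenchyme-like cluster 15, with *Grp* and *Msx1* among its leading genes (589 distal cells). Epithelial-like cells of the E16.5 proximal library, which should lack *Runx2*, were at 0.947 CPM, with a UMI in 0.640% of thinned cells at a median of 37708 UMIs, against 15.1% of perichondrial-like cells at a median of 13637.

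**Figure D1:**
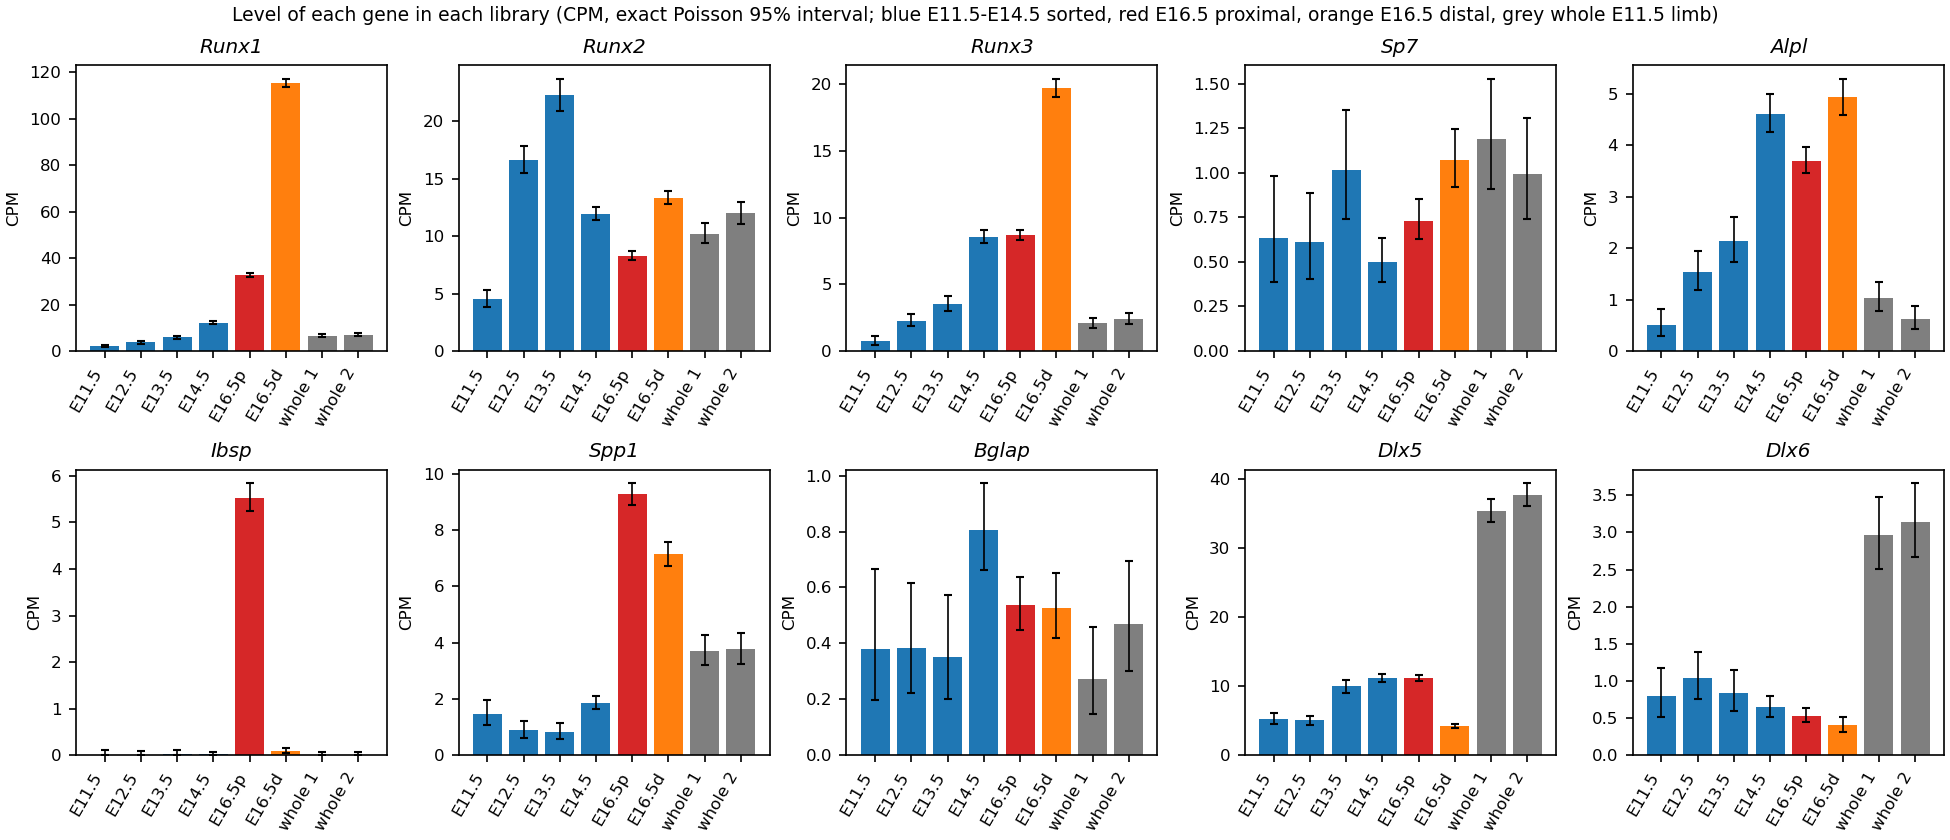
Each panel plots the level of 1 gene (y axis, CPM, from 0, with its own scale) in the 8 libraries (x axis). Bars are the libraries, coloured by group, and error bars are exact Poisson 95% intervals. *Runx1* and *Runx3* have their highest bar in E16.5 distal (115 and 19.7 CPM), *Runx2* peaks at E13.5 (22.3), *Ibsp* stands up only in E16.5 proximal (5.53), and *Dlx5* and *Dlx6* are highest in the 2 whole limb libraries.

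*Sp7* was scarce everywhere. It was at 0.635 CPM at E11.5, then 0.611 at E12.5, 1.01 by E13.5, 0.50 by E14.5, 0.732 in E16.5 proximal, 1.07 in E16.5 distal, and 1.19 and 0.994 in the whole limb libraries, from 20 to 172 UMIs per library. The E14.5 interval (0.387 to 0.635) lay below those of E13.5 and E16.5 distal and overlapped those of E11.5, E12.5 and E16.5 proximal, and no order by stage was seen. The clusters with the most *Sp7* differed by stage. At E13.5 the highest levels were 3.45 CPM in chondrocyte-like cluster 1 and 3.09 in cluster 2, at E14.5 it was 3.34 in cluster 3, and in E16.5 proximal it was 9.42 (7.11 to 12.2) in perichondrial-like cluster 18, which held 32.6% of the *Sp7* UMIs in 3.52% of the cells. In E16.5 distal, cluster 22 was at 6.58 (2.65 to 13.6) and distal mesenchyme-like cluster 15 at 4.91 (3.57 to 6.59). *Sp7* was at 0.0279 CPM in proximal epithelial-like cells and 0.673 in pericyte-like cells.

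Cells with a UMI of both *Runx2* and *Sp7* were rare and were counted in every library. There were 2 at E11.5, then 9 at E12.5, 18 by E13.5, 31 by E14.5, 78 in E16.5 proximal, 72 in E16.5 distal, and 14 and 2 in the whole limb libraries. As shares this was 0.0632% at E11.5, 0.370% at E14.5, 0.702% (0.555 to 0.876) in E16.5 proximal and 0.852% (0.668 to 1.07) in E16.5 distal. Depth did not follow one direction, since the median UMIs per cell were 8992, 8683 and 6788 in the first 3 libraries and 14333 to 18473 in the later sorted ones. Thinned to 3000 UMIs per cell, with no cell left out, 20 of 41939 sorted cells remained, a share of 0.0477%, with 0, 2, 5, 1, 5 and 7 cells in the order above, and the thinned intervals of all 6 overlapped. At equal depth a difference between stages was not detectable. The 0 of 3165 thinned cells at E11.5 allows a share of up to 0.0948% by the limit of 3 counts of the total, and of up to 0.116% by the Clopper-Pearson interval. These limits are for detection at 3000 UMIs. With all UMIs the E11.5 share of 0.0632% had an interval up to 0.228%.

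With all UMIs counted, *Runx2* was found more often in cells with *Sp7* than in other cells in most libraries. In E16.5 proximal 58.2% (49.4 to 66.7) of cells with an *Sp7* UMI also carried *Runx2*, against 10.6% of the other cells. At E14.5 it was 55.4% against 10.4%, at E13.5 42.9% against 9.64%, at E12.5 34.6% against 9.07%, and in E16.5 distal 51.8% against 12.4%. At E11.5 only 20 cells had *Sp7*, and 10% (1.23 to 31.7) of them had *Runx2* against 3.50%, so the interval held the level of the other cells. The whole limb libraries differed from each other, with 23.3% (13.4 to 36.0) against 6.74% in whole 1 and 4% (0.488 to 13.7) against 7.92% in whole 2. These shares move with the depth of a cell. Thinned to 3000 UMIs, the interval lay above the share of the other cells in 4 libraries, with 26.3% (9.15 to 51.2) against 4.85% at E13.5, 25% (8.66 to 49.1) against 2.70% in E16.5 proximal, 28% (12.1 to 49.4) against 3.68% in E16.5 distal and 20% (5.73 to 43.7) against 2.99% in whole 1. It held that share at E12.5 (16.7%, 2.09 to 48.4, against 4.04%) and at E14.5 (8.33%, 0.211 to 38.5, against 3.15%). No thinned *Sp7* cell had *Runx2* at E11.5 or in whole 2, with upper bounds of 60.2% and 17.6% against 1.27% and 3.87%.

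**Figure D2:**
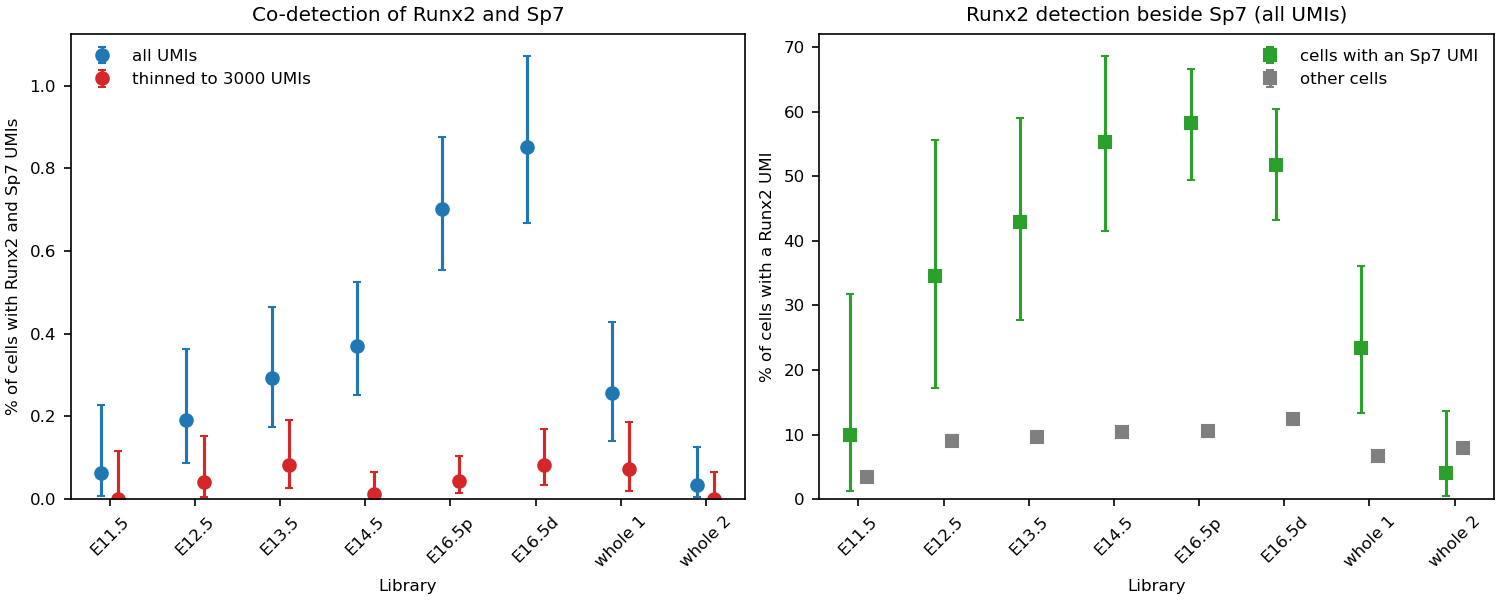
The left panel plots the share of cells with a UMI of both *Runx2* and *Sp7* (y axis, % of cells) by library (x axis), with all UMIs in blue and after thinning to 3000 UMIs in red. The right panel plots the share of cells with a *Runx2* UMI among cells with an *Sp7* UMI (green) and among other cells (grey), with all UMIs counted, and bars are Clopper-Pearson 95% intervals. The blue points reach 0.852% in E16.5 distal while the red ones stay below 0.1%, and the green points stand above the grey ones from E12.5 to E16.5.

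At E13.5 and E14.5 the unnamed clusters led by *Pcp4* held the most co-detecting cells, 8 of 18 in cluster 2 and 18 of 31 in cluster 3. In E16.5 proximal, 29 of 78 lay in perichondrial-like cluster 18, where they were 7.42% (5.02 to 10.5) of the cells, and 21 lay in chondrocyte-like cluster 5, 2.00% of its 1049 cells. In E16.5 distal, distal mesenchyme-like cluster 15 held 28 of 72, unnamed cluster 10, led by *Sema3e* and *Cytl1* with 7 chondrocyte markers raised, held 11, and unnamed cluster 7 held 10. Perichondrial-like cluster 18 had only 14 distal cells, of which 3 co-detected. No co-detecting cell lay in a pericyte-like or epithelial-like cluster at E16.5. Of the classes well filled in both segments, dermal fibroblast-like cells co-detected in 14 of 1152 proximally (1.22%, 0.666 to 2.03) and in 5 of 778 distally (0.643%, 0.209 to 1.49), and mitotic-like cells in 12 of 1331 (0.902%, 0.467 to 1.57) and in 11 of 727 (1.51%, 0.758 to 2.69). These intervals overlapped, and no cell of these 2 classes co-detected after thinning. Tenocyte-like cells co-detected in 0 of 852 and 1 of 560, the latter also after thinning, and fibroblast-like cells in 0 of 613 and 1 of 608.

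At E14.5 and E16.5 co-detecting cells carried several other osteogenic genes more often than the remaining cells of their library, with both thinned to 3000 UMIs. In E16.5 proximal *Alpl* was found in 20.5% (12.2 to 31.2) of them against 0.662% of the others, *Spp1* in 15.4% against 0.707%, *Dlx5* in 16.7% against 2.36%, *Runx3* in 19.2% against 2.70%, and *Omd*, which encodes the matrix protein osteomodulin, in 26.9% against 1.63%. In E16.5 distal *Alpl* was in 23.6% against 1.16%, *Omd* in 23.6% against 0.955% and *Dlx5* in 12.5% against 1.41%, while *Spp1* was in 1.39% (0.0352 to 7.50) against 0.872%. At E14.5 *Dlx5* was in 35.5% against 2.69% and *Alpl* in 19.4% against 1.13%. The other libraries held 2 to 18 such cells, and the picture there was mixed. At E13.5 the intervals for *Alpl* (0.141 to 27.3, against 0.508%) and *Dlx5* (1.38 to 34.7, against 2.70%) held the level of the other cells, while that for *Runx3* (1.38 to 34.7, against 0.852%) lay above it. *Alpl* was in 0 of 9 cells at E12.5, where *Spp1* was in 1, and in 0 of 14 in whole 1, and the 2 cells each of E11.5 and whole 2 had none of *Alpl*, *Spp1*, *Dlx5* and *Runx3*. Of the genes of later osteoblasts, *Ibsp* was in 5.13% of the proximal co-detecting cells against 0.0725%, *Ifitm5* in 3.85% (0.8003 to 10.8) against 1.13%, *Bglap* in 1.28% against 0.145% and *Phex* in 1.28% against 6.02%. *Dmp1* was in 0 of the 78, with an interval up to 4.62%, against 0.0272%, although 1 of the 78, the cell with the most *Ibsp*, had 4 *Dmp1* and 5 *Bglap* UMIs before thinning. Distally *Ifitm5* was in 11.1% (4.92 to 20.7) against 2.59%, and *Ibsp*, *Bglap* and *Dmp1* were in 0 of 72. Cartilage *Col2a1* was in 47.4% of the proximal co-detecting cells against 18.9% of the others. Median UMIs before thinning were 19861 against 18464 proximally, 17496 against 17274 distally and 19818 against 14322.5 at E14.5.

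The matrix genes are shown with the stretch before their RefSeq start, since *Ibsp*, *Spp1* and *Bglap* were the members with a homeodomain core (CAATTA) or, besides the RUNX genes, a RUNX core (ACCACA), both in capitals.
Ibsp, chr5:104299077-104299286, plus strand: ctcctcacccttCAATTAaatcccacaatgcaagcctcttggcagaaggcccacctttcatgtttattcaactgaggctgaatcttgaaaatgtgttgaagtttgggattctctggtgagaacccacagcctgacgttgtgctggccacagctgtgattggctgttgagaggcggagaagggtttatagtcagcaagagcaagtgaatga
Spp1, chr5:104434961-104435110, plus strand: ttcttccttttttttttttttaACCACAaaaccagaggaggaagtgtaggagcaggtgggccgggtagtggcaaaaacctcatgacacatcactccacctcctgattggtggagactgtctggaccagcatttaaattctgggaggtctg
Bglap, chr3:88384467-88384616, minus strand: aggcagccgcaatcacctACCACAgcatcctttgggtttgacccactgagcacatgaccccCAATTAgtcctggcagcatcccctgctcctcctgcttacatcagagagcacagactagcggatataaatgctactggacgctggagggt
The homeodomain core stood at -198 in *Ibsp* and -89 in *Bglap*, and was in 7.9998% of all windows. The RUNX core stood at -128 in *Spp1* and -132 in *Bglap*. Of the 3 motifs *Alpl* held only the GC box, which was in 35.7% of all windows.

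*Alpl*, the tissue-nonspecific alkaline phosphatase, was at 0.508 CPM at E11.5, then 1.54 at E12.5, 2.14 by E13.5, 4.61 by E14.5, 3.70 in E16.5 proximal, 4.93 in E16.5 distal, and 1.03 and 0.624 in the whole limb libraries. All sorted libraries from E12.5 on were above the E11.5 one. The intervals of E12.5 and E13.5 overlapped, as did those of E14.5 and E16.5 distal. Its leading clusters were those of *Runx2*. *Alpl* was at 12.8 CPM in cluster 10 at E12.5, led by *Igfbp7* and *Zeb2os*, at 10.4 in cluster 2 at E13.5, and at 35.3 in cluster 3 at E14.5. In E16.5 proximal it was at 69.8 (63.2 to 76.8) in perichondrial-like cluster 18, which held 47.7% of its UMIs, and in E16.5 distal at 42.4 (38.2 to 46.9) in distal mesenchyme-like cluster 15.

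*Ibsp*, a protein of mineralising matrix, had no UMI at E11.5, at E12.5 or in the whole limb libraries, 1 at E13.5 and 3 at E14.5. It had 1300 UMIs in E16.5 proximal, or 5.53 CPM, and 16 in E16.5 distal, or 0.100 CPM. The proximal signal sat in very few cells: 38 cells had any *Ibsp* and 2 cells with 702 and 411 UMIs held 85.6% of it. A proximal cell of dermal fibroblast-like cluster 22 had 53 *Ibsp* UMIs and 0 of *Spp1*, *Alpl*, *Sp7* and *Ifitm5*. The distal UMIs were spread over 12 cells with at most 3 each. E16.5 proximal was at least 58.1-fold over E11.5, taken against the floor of 3 UMIs in that library.

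Both *Ibsp*-rich cells had other genes of mineralising tissue, in different amounts. The first lay in perichondrial-like cluster 18 and had 1073 *Spp1*, 1670 *Col1a1*, 30 *Ifitm5*, 4 *Dmp1*, 5 *Bglap*, 6 *Alpl*, 6 *Pth1r*, 4 *Runx2* and 4 *Sp7* UMIs among 37064. *Ifitm5* and *Dmp1* mark osteoblasts and osteocytes, and *Col1a1* encodes the main collagen of bone. The second lay in chondrocyte-like cluster 5 and had 343 *Spp1*, 1134 *Col2a1*, 1172 *Col10a1*, 38 *Alpl*, 50 *Pth1r*, 6 *Ihh*, 6 *Ifitm5*, 2 *Col1a1*, 3 *Runx2* and 1 *Sp7* UMIs among 36868, so both cells were among the 78 that co-detected. *Col10a1* and *Ihh* mark hypertrophic cartilage. Both had tdTomato transcripts, 57 and 20 UMIs, and neither had a UMI of the pan-leukocyte gene *Ptprc*. Their totals were above the library's median of 18473 UMIs, and their simulated-doublet scores were 0.182 and 0.267. The second was among the 987 highest-scoring proximal cells left out as an alternative for doublets, and the first was not. Whether either droplet held more than 1 cell was not tested further.

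*Spp1* was at 1.46 CPM at E11.5, then 0.882 at E12.5, 0.837 by E13.5, 1.87 by E14.5, 9.27 in E16.5 proximal, 7.14 in E16.5 distal, and 3.70 and 3.76 in the whole limb libraries. The same 2 cells held 65.0% of the 2177 proximal *Spp1* UMIs. Without them E16.5 proximal was at 3.24 CPM, below the distal library. Distally *Spp1* was spread more widely, with 29 of 183 positive cells at 10 UMIs or more, and cluster 10 led at 78.5 CPM (73.4 to 83.8). In the whole limb libraries chondrocyte-like clusters were highest, at up to 13.4 and 12.9 CPM.

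**Figure D3:**
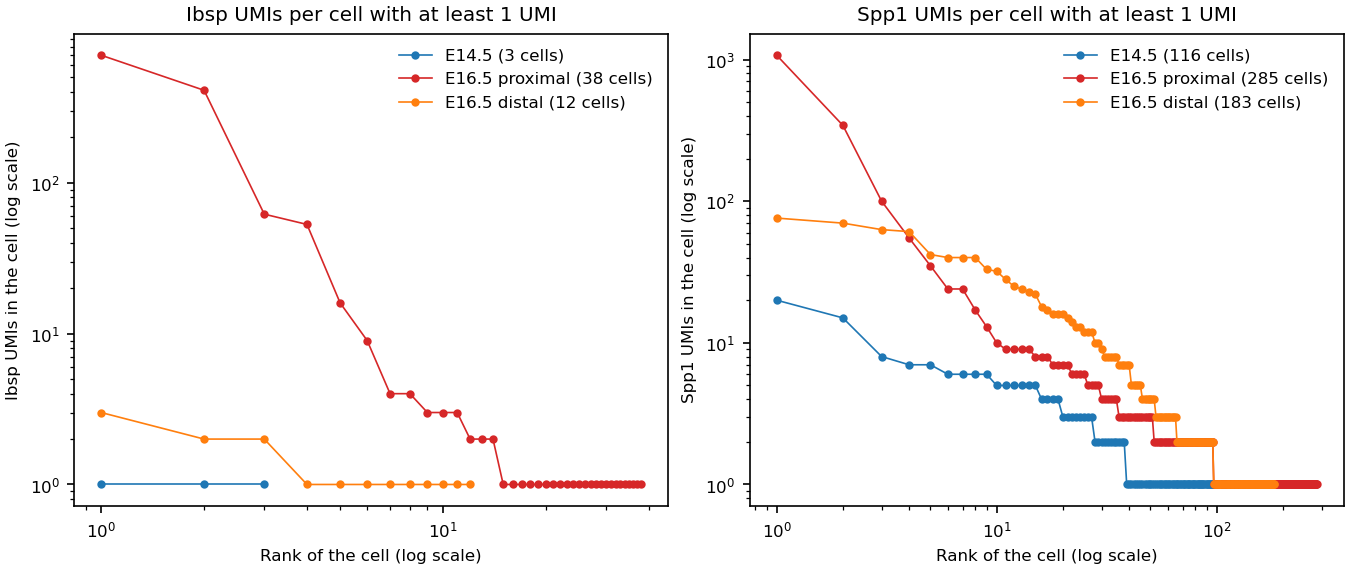
UMIs of *Ibsp* (left) and *Spp1* (right) per cell (y axis, log scale) are plotted against the rank of the cell (x axis, log scale) for cells with at least 1 UMI in the E14.5 library and both E16.5 libraries. For *Ibsp*, 2 proximal cells at 702 and 411 UMIs stand far above the rest. For *Spp1* the proximal curve starts at 1073 and falls below the distal one after its first few cells.

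*Bglap* stayed between 0.273 and 0.806 CPM in all 8 libraries. Its UMIs lay mostly as single UMIs in scattered cells, its highest level in any cluster of at least 50 cells at E14.5 was 2.28 CPM in mitotic-like cluster 0, and all 5 UMIs of the proximal cells of perichondrial-like cluster 18 came from the first *Ibsp*-rich cell. *Bglap*, *Bglap2* and *Bglap3* are near-identical neighbouring copies, so their counts could be split between them and are uncertain. *Bglap3* was at 1.33 CPM in E16.5 proximal and 0.144 in distal, and *Bglap2* at 0.170 and 1.32.

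*Dlx5*, a homeobox factor of limb ectoderm, distal mesenchyme and bone, was higher in both whole limb libraries than in any sorted one. It was at 5.30 CPM at E11.5, then 5.04 at E12.5, 9.96 by E13.5, 11.2 by E14.5, 11.1 in E16.5 proximal, 4.19 in E16.5 distal, and 35.4 and 37.6 in the whole limb libraries. *Dlx6* was at 0.402 to 1.04 CPM in the sorted libraries and at 2.96 and 3.14 in the whole limb ones. In the whole limb, distal mesenchyme-like cluster 5 led for both genes, with *Dlx5* at 79.9 and 77.9 CPM and *Dlx6* at 7.26 and 9.17.

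In the sorted cells the leading *Dlx5* cluster was not that of *Runx2* at E13.5 but was at E14.5 and E16.5. At E13.5 cluster 5, led by *Alx1*, was highest at 25.3 CPM and cluster 2 stood at 17.1. At E14.5 cluster 3 was at 68.5 (63.2 to 74.3), and in E16.5 proximal cluster 18 was at 80.4 (73.3 to 87.9) for *Dlx5* and 12.6 (9.92 to 15.8) for *Dlx6*. A second source was present proximally, since epithelial-like cells were at 35.5 CPM and held 48.6% of the *Dlx5* UMIs in 8.43% of the cells. Without epithelial-like clusters *Dlx5* was at 6.76 CPM in E16.5 proximal. The distal library led in distal mesenchyme-like cluster 15, at 24.1.

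**Figure D4:**
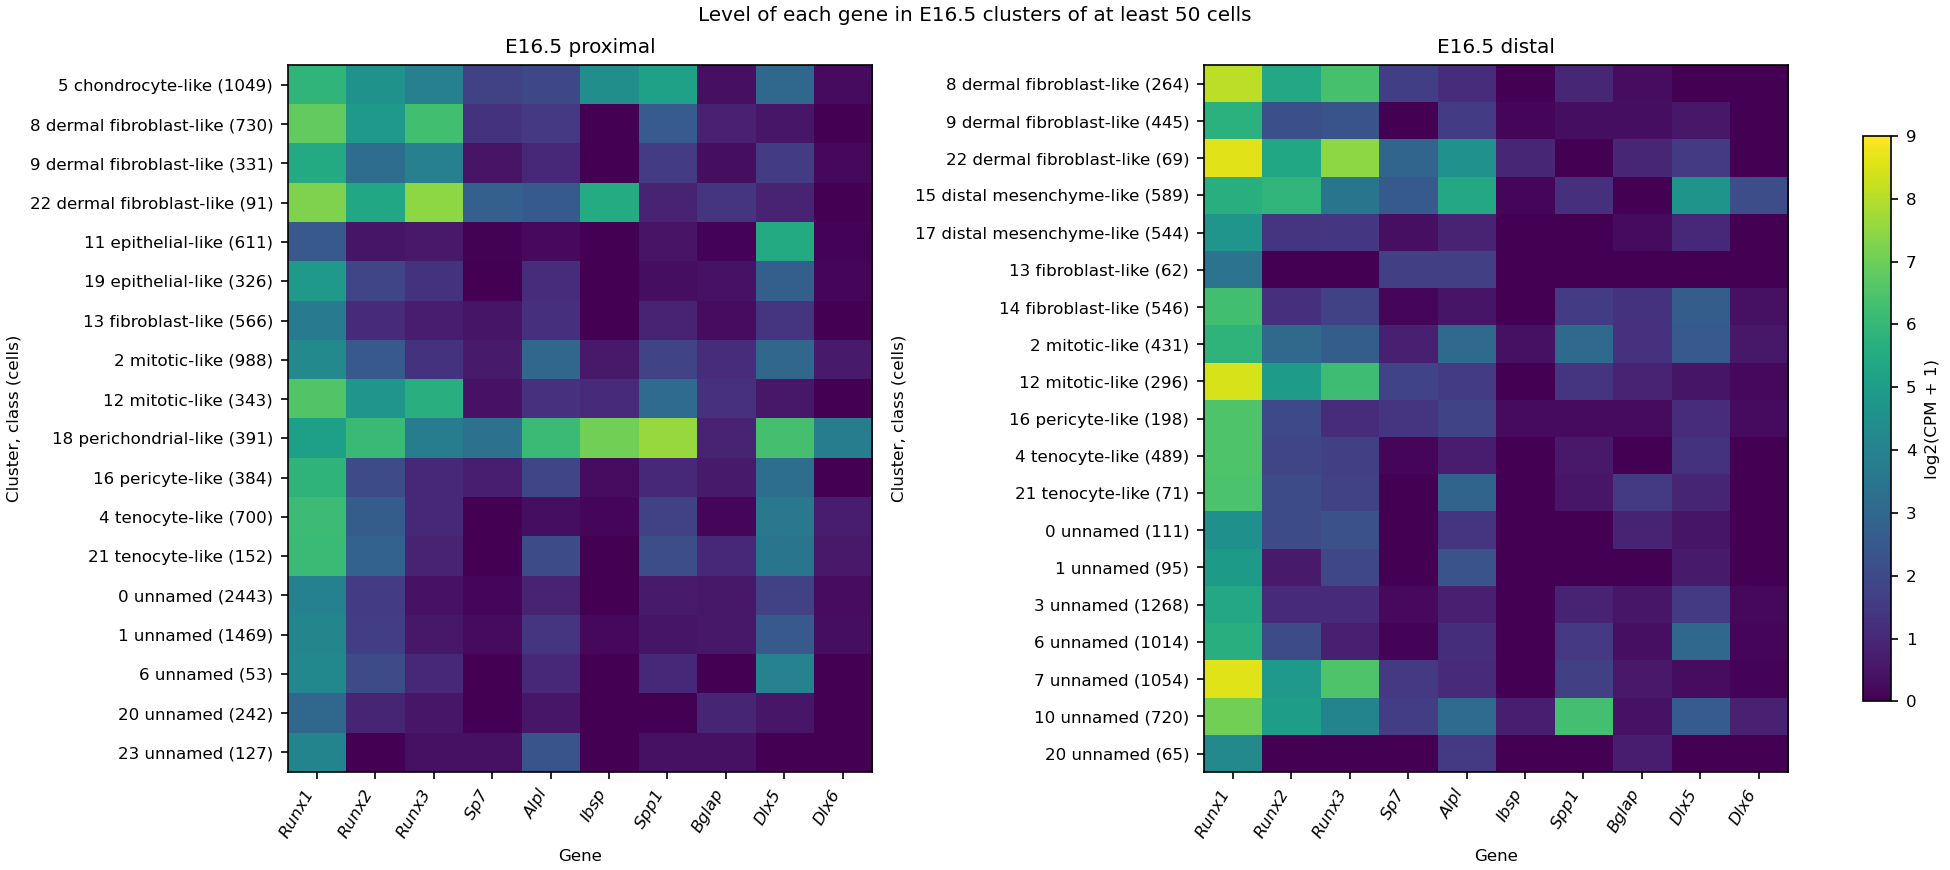
Colour gives the level of each gene (x axis) as log2(CPM + 1), from 0 to 9, in each E16.5 cluster of at least 50 cells (y axis, cluster number, class and cell number), proximal on the left and distal on the right. Perichondrial-like cluster 18 is bright across *Runx2*, *Alpl*, *Ibsp*, *Spp1*, *Dlx5* and *Dlx6* proximally, distal mesenchyme-like cluster 15 across *Runx2*, *Alpl* and *Dlx5* distally, and the dermal fibroblast-like clusters across *Runx1* and *Runx3*. In cluster 18 the colours of *Ibsp* (134 CPM) and *Spp1* (197) rest on 1 cell, without which they were at 15.8 and 16.1 CPM. Dermal fibroblast-like cluster 22 was at 45.8 CPM of *Ibsp* proximally, from 56 UMIs, of which 1 cell held 53.

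Steps between stages were counted with a rule of size, a ratio of at least 2 for genes whose higher value reached 1 CPM. A gene under 1 CPM in one library of a pair enters only through the other, which fixes its direction. This holds for the members and for all genes alike. From E11.5 to E12.5, 3 of 7 members tested were higher, *Runx2* (3.66-fold), *Alpl* (3.03) and *Runx3* (2.998), and 0 lower, where 5.1% of all 12870 genes were higher and 2.63% lower. From E12.5 to E13.5, 0 of 7 passed in either direction, where 5.11% and 2.49% of genes did. From E13.5 to E14.5, 4 of 7 were higher, *Runx3* (2.44), *Spp1* (2.24), *Alpl* (2.16) and *Runx1* (2.07), and *Sp7* was lower at 0.493 of its level (0.334 to 0.734), beside 6.9% and 8.33% of genes. *Runx2* was at 0.536 of its E13.5 level and did not pass. This step also changes the reagent version.

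The E16.5 libraries were sorted from segments, while the earlier sorted ones came from undivided forelimbs, so stage and segment cannot be told apart in the steps that follow. From E14.5 to E16.5 proximal, 3 of 7 were higher, *Ibsp* (247-fold, 84.4 to 1200.3, from 3 UMIs), *Spp1* (4.95) and *Runx1* (2.71), and 0 lower, beside 9.38% and 10.5% of genes. Without the 2 *Ibsp*-rich cells only *Runx1* of these 3 passed. *Ibsp* was then still 35.6-fold but fell short of the 1 CPM limit at 0.796 CPM, and *Spp1* was 1.73-fold (3.24 against 1.87 CPM). With all cells *Ibsp* was under 1 CPM at E14.5, so in this step it entered only through E16.5. Over the whole course from E11.5 to E16.5 proximal, 6 of 7 were higher and 0 lower, beside 17.9% and 29.3% of genes. Besides *Runx1* and *Ibsp* these were *Runx3* (11.4-fold), *Alpl* (7.29), *Spp1* (6.35) and *Dlx5* (2.10). *Ibsp*, *Runx3* and *Alpl* were under 1 CPM at E11.5, so they entered only through E16.5 and could not have come out lower. *Runx2* was 1.83-fold and did not pass, and the median tested member was at a log2 ratio of 2.87 against -0.43 for all genes tested. *Bglap*, *Sp7* and *Dlx6*, left out by the 1 CPM limit, were at ratios of 1.41, 1.15 and 0.671. Without the 2 *Ibsp*-rich cells 5 members passed, with *Spp1* at 2.22-fold and *Ibsp*, under 1 CPM in both libraries, no longer tested. Without epithelial-like clusters *Dlx5* was 1.27-fold and *Runx2* 2.12-fold, which put *Runx2* past the limit and *Dlx5* short of it.

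The distal library gave other calls. From E14.5 to E16.5 distal, 4 of 7 members were higher, *Runx1* (9.53-fold), *Spp1* (3.81), *Runx3* (2.29) and *Sp7* (2.15, 1.61 to 2.89), and *Dlx5* was lower at 0.375 of its level, beside 10.7% and 9.2% of genes. *Sp7*, at 0.50 CPM at E14.5, entered only through E16.5 and could not have come out lower. From E11.5 to E16.5 distal, 5 of 7 were higher and 0 lower, beside 19.7% and 26.4% of genes. These were *Runx1* (55.1-fold), *Runx3* (25.9), *Alpl* (9.71), *Spp1* (4.89) and *Runx2* (2.93), while *Dlx5* was at 0.791 and *Ibsp* was too low to be tested. *Runx3* and *Alpl* again entered only through E16.5, as did *Sp7*, which was 1.69-fold and did not pass.

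Other genes of the pathway were read from a list of 38 measured genes. From E11.5 to E16.5 proximal, 12 of 28 tested were higher and 9 lower, beside 17.9% and 29.3% of all genes. Single genes are ranked here only where one of the libraries compared had 10 CPM or more, unless stated. The largest ratios were those of the matrix genes *Col1a1* (21.8-fold), *Sparc* (19.2) and *Col1a2* (9.57), and the smallest were those of the homeobox genes *Msx2* (0.022) and *Msx1* (0.0514) and the ligand *Bmp4* (0.279). From E11.5 to E12.5, 7 of 24 were higher and 2 lower (5.1% and 2.63% of all genes), with *Phex* (4.34), *Pthlh* (2.80) and *Sparc* (2.59) highest among those at 10 CPM or more. From E12.5 to E13.5 it was 1 and 2 of 24 (5.11% and 2.49%), and from E13.5 to E14.5 9 and 4 of 25 (6.9% and 8.33%), with *Msx1* (9.21), *Twist1* (6.16) and *Col1a1* (3.91) highest and *Pthlh* (0.241) lowest at that limit. From E14.5 to E16.5 proximal 6 of 27 were higher and 3 lower (9.38% and 10.5%), with *Msx1* (0.0448) lowest and *Col1a2* (2.29) highest at that limit. *Msx1* was at 43.2 CPM in the sorted E14.5 library, 1.94 in E16.5 proximal and 15.99 in E16.5 distal, so its ratio depended on the segment. Under 10 CPM, *Col10a1* was 18.7-fold, at 5.58 CPM in E16.5 proximal, but 1172 of its 1310 UMIs there lay in the second *Ibsp*-rich cell. Without the 2 cells it was at 0.588 CPM, too low to be tested here or against E11.5. The 1 gene that passed from E12.5 to E13.5 on the higher side, whatever its level, was *Omd* (5.85-fold), and no gene of the collagen and bone matrix group was lower at any of these steps.

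The segments of the E16.5 limb were compared next, as 1 library each. 2 of 8 members were at least 2-fold higher distally, *Runx1* (3.52-fold, 3.43 to 3.62) and *Runx3* (2.27, 2.14 to 2.40), and 2 were lower, *Ibsp* (55.1-fold higher proximally) and *Dlx5* (2.66-fold higher proximally, 2.44 to 2.90). Of all 13482 genes 7.57% were higher and 6.66% lower. *Runx2* (1.60), *Sp7* (1.47) and *Alpl* (1.33) were higher distally without reaching 2-fold. *Ibsp*, at 0.100 CPM distally, entered only through the proximal library, and *Sp7*, at 0.732 CPM proximally, only through the distal one. The direction of these 2 genes was therefore fixed. *Spp1* was at 0.771 distally, and at 2.20 without the 2 *Ibsp*-rich cells, so the direction between the whole libraries changed with them. *Ibsp*, at 0.796 CPM proximally without them, was then 7.93-fold higher proximally and under the limit for a call, so 4 members passed with or without the 2 cells but not the same 4. Without epithelial-like clusters only *Runx1* (3.17-fold) and *Ibsp* of the 4 still passed, with *Runx3* at 1.97-fold and *Dlx5* at 0.588.

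Within 13 clusters that held at least 50 cells of each segment, *Runx1* was higher distally in 12, with ratios from 0.836 to 3.81, a median of 1.72, and an interval above 1 in those 12. Of all genes, 15.3% were higher distally in at least 12 clusters. *Dlx5* was lower distally in 12, with 7 intervals below 1 among the 10 clusters with UMIs in both segments, and 11.8% of all genes were lower in at least 12. The exception for *Runx1* was fibroblast-like cluster 13 and for *Dlx5* cluster 22, which had 1 and 2 *Dlx5* UMIs. *Spp1* was lower distally in 10 and higher in 2, where 23.5% of all genes were lower in at least 10. Of the 8 clusters with *Spp1* UMIs in both segments 5 had an interval below 1 and 1 had it above, with a median ratio of 0.198. Clusters 18 and 5, which held the 2 *Ibsp*-rich cells, and cluster 10, the highest distally, were not among the 13. *Runx3* was higher distally in 8 of the 13, where 47% of all genes were higher in at least 8. Of the 11 clusters with *Runx3* UMIs in both segments 5 had an interval above 1 and 1 had it below, with ratios from 0.289 to 10.3 and a median of 1.48. In the dermal fibroblast-like clusters its ratio was 1.09 (0.955 to 1.23) in cluster 8, 0.996 (0.815 to 1.22) in cluster 22 and 0.289 (0.189 to 0.430) in cluster 9, so these clusters did not show the 2.27-fold of the whole libraries. *Alpl* was higher distally in 11 clusters, where 23.3% of all genes were higher in at least 11, and its interval lay above 1 in only 1. *Runx2* was higher in 4 and lower in 9, where 30.3% of all genes were lower in at least 9, and 2 of the 9 had no distal UMI. Its interval lay above 1 in clusters 2 (1.62) and 8 (1.495), below 1 in clusters 4 (0.517) and 9 (0.429), and held 1 in the other 7 with UMIs in both segments. Clusters 18 and 15, which led for *Runx2*, were not among the 13.

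**Figure D5:**
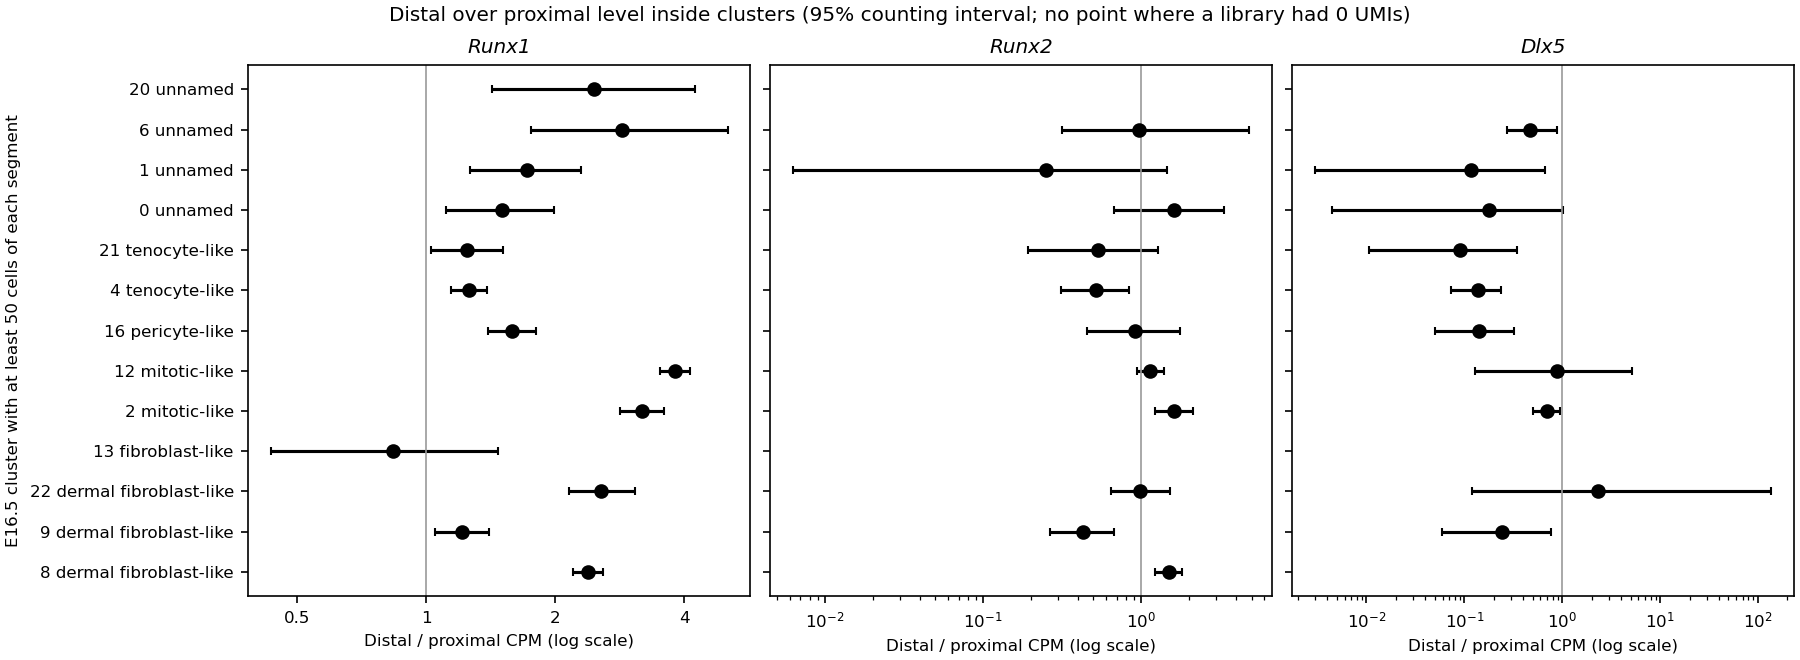
The ratio of distal to proximal CPM (x axis, log scale) is plotted for *Runx1*, *Runx2* and *Dlx5* in the 13 E16.5 clusters with at least 50 cells of each segment (y axis), with 95% counting intervals and a line at 1. Clusters in which a library had 0 UMIs carry no point. *Runx1* lies to the right of 1 in 12 clusters, *Dlx5* to the left in all but 1 of the 10 plotted, and *Runx2* lies on both sides.

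Among the pathway genes 9 of 28 were higher distally and 2 lower, beside 7.57% and 6.66% of all genes. *Msx1*, a marker of distal mesenchyme, was 8.25-fold, *Enpp1*, which makes the mineral inhibitor pyrophosphate, 3.53-fold, and *Bmp4* 3.28-fold higher distally, the 3 highest ratios at 10 CPM or more. The 2 lower genes were hypertrophic cartilage *Col10a1* (5.58 CPM proximally, 0.201 distally) and *Bglap3*. Both were under 1 CPM distally, so they entered only through the proximal library and could not have come out higher distally. Counts of *Bglap3* are uncertain, since they could be split with its near-identical copy *Bglap2*, which was higher distally. Without the 2 *Ibsp*-rich cells *Col10a1* was at 0.588 CPM proximally and was not tested.

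At E11.5 sorted and whole limb cells were compared with a test, as 1 sorted library against 2 whole limb libraries, on UMIs summed outside myogenic, epithelial, endothelial, blood and glial-like clusters. The 2 whole limb libraries may be technical repeats, and the single sorted library is assumed to vary alike. The p-values rest on the spread between the 2 whole limb libraries alone, shared over all genes by the test. They therefore do not measure the spread of each gene by itself. The sorted state and that library cannot be told apart, so the calls describe these 3 libraries and the p-values do not carry over to other sorted or whole limb samples. Of 9 members tested with edgeR's quasi-likelihood test, 7 were lower in the sorted cells and 0 higher at a Benjamini-Hochberg adjusted threshold of 0.05, where 26.5% of 15051 genes were lower and 26.9% higher. The median member was at -1.63 on the log2 scale against 0.01 for all genes.

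The *Dlx* pair differed most. *Dlx5* stood at 5.33 CPM after sorting, against 38.4 and 40.3 in the whole limb libraries, a log2 fold of -3.06 ± 0.16 (SE), with an edgeR adjusted p of 2.58e-81. *Dlx6* was at 0.799 against 3.22 and 3.37, with -2.22 ± 0.29 and an edgeR adjusted p of 2.99e-13. Both whole limb values lay far above the sorted one.

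The RUNX genes fell in a narrow band of differences. *Runx2* was at 4.54 CPM against 10.9 and 12.9 (-1.57 ± 0.17, edgeR adjusted p 2.71e-18), *Runx1* at 1.92 against 5.07 and 5.52 (-1.64 ± 0.22, 1.59e-12) and *Runx3* at 0.767 against 2.25 and 2.55 (-1.82 ± 0.31, 4.17e-08). *Spp1* was at 1.47 against 3.99 and 4.05 (-1.63 ± 0.24, 2.61e-10). *Sp7*, at 0.639 against 1.29 and 1.04, gave -1.04 ± 0.38 with an edgeR adjusted p of 0.0152, and this call was lost with DESeq2 (adjusted p 0.249), limma-voom (0.0785) and without the filter on low counts (0.0937). The other 6 called members passed under these 3 alternatives too, at larger p. Their adjusted p was between 0.0195 and 0.0313 with edgeR without the filter, and up to 0.00343 with DESeq2, both highest for *Runx3*.

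*Alpl* and *Bglap* did not pass the edgeR test, with adjusted p of 0.731 and 0.752 and log2 folds of -0.21 ± 0.48 and -0.22 ± 0.54. *Ibsp* was at 0 in all 3 libraries. In the pathway list 10 of 29 genes were lower in sorted cells (beside 26.5% of all genes), with *Dlx2* (-4.29), *Msx2* (-3.82) and *Msx1* (-3.80) the furthest, and 8 were higher (beside 26.9%, a share close to theirs). The higher ones included the ligand *Pthlh* (3.67), the mineralisation gene *Phex* (2.16) and the collagen gene *Col1a1* (1.48). The list's median was -0.28.

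The genes most like each regulator were found by Pearson correlation of log2(CPM + 1) over 90 profiles (library by class or unnamed cluster of at least 50 cells) among 12129 genes. Profiles of one library share its depth and reagent, so the values describe these data. For *Sp7* they were *Asap1* (0.59), *Galr2* (0.58), *Dync1i1* (0.56), *Rarg* (0.56) and *Fgfr2* (0.56), and among members *Runx2* (0.67), *Spp1* (0.66) and *Dlx6* (0.61) stood above all of these. Without the 2 *Ibsp*-rich cells the value for *Spp1* was also 0.61. *Sp7* reached at most 9.42 CPM in any profile, under the 10 CPM asked of the genes compared, so the correlations of *Sp7* rest on few UMIs. *Rarg* lies on chromosome 15, 99.1 kb from *Sp7*. For *Runx2* they were *Cadm2* (0.62), *Foxc1* (0.59), *Sema6a* (0.58), *Eva1a* (0.57) and *Supt3* (0.56). *Supt3* overlaps *Runx2* by 37.6 kb on the opposite strand, and how reads of the shared part were assigned was not tested.

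For *Dlx5* the nearest genes were *Dync1i1* (0.63), *Cisd1* (0.58), *Shfm1* (0.58), *Asns* (0.57) and *Carnmt1* (0.57), and *Dlx6* was at 0.65. *Dync1i1*, *Shfm1* and *Asns* lie on chromosome 6 with *Dlx5*, at 849.8, 299.1 and 793 kb. *Runx1* had a different neighbourhood, with *Ankrd40* (0.83), *Pura* (0.82), *Fam120a* (0.81), *Hdlbp* (0.80) and *Gadd45b* (0.80), and its correlation was 0.05 with *Runx2* and -0.23 with *Dlx5*.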

How the data were processed

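The deposited values are raw UMI counts, 1 per gene in each cell, which the authors made with Cell Ranger (version 3.0.2 for 5 libraries, 6.0.1 for 1, not given for 2, all by the submitters' processing notes, while the paper's reporting summary names a different version) on a modified mm10 genome, 1 library per file. The counts were not normalized. The authors removed cells under 3000 UMIs and, at E16.5, keratin-rich epithelial clusters from their own analysis. Epithelial cells were kept here, and no doublets were removed.

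Cells with at least 3000 UMIs and at most 10% mitochondrial UMIs were kept. Cells were clustered by stage with scanpy 1.11.5 (Leiden resolution 1) without the 10 genes and named from fixed marker lists. 2 naming rules, for muscle-fibre genes and for epithelial markers, were added after the clusters were seen. CPM is a gene's UMIs per 1000000 UMIs of the cells summed. For co-detection each cell was thinned at random to 3000 UMIs. Sorted libraries were compared by a 2-fold rule at 1 CPM or more, with no test. The E11.5 comparison used edgeR 4.0.16 (quasi-likelihood, Benjamini-Hochberg). Tested on simulated data for that comparison, it recovered 196 of 200 changed genes among 14960 with 14 false calls (DESeq2 180 with 0, limma-voom 195 with 17). The changed genes were drawn from those with ample counts, and the raised ones had a median log2 fold of 1.98 with edgeR. All genes and libraries were simulated with the same spread, so this could not check whether the sorted library varies like the whole limb ones. The whole limb libraries differed from each other beyond sampling noise (chi-square per degree of freedom 15.69 over 14143 genes). Named genes were the 10 members, the pathway genes with the 3 highest and 3 lowest ratios at 10 CPM or more, and the 5 genes most like each regulator. Genes outside this rule (*Omd*, *Dmp1*, *Ifitm5*, *Col2a1*, *Col10a1*, *Pth1r*, *Ihh*, *Ptprc*, the *Bglap* copies and cluster-leading genes) were named after their values were seen. The members and lists were chosen with earlier results of these data known. Promoter sequences were those of RefSeq on GRCm38.p6, read by a script.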

Additional observations from a re-analysis of the deposited data

How the results depend on the processing

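Of 27 alternative values of the main comparisons 21 were labelled the same. For counts of called members the label compares only how many were called, not which genes. For shares it means a value inside the main interval. Without the 2 *Ibsp*-rich cells, for instance, the number of members passing between the segments was the same but the genes were not. Without epithelial-like clusters 2 members, not 4, differed by at least 2-fold between the E16.5 segments. Co-detection in sorted cells was 0.501% without thinning, 0.167% thinned to 6000 UMIs and 0.0835% with at least 2 UMIs of each gene unthinned, against 0.0477%. The share of E16.5 proximal co-detecting cells that lay in perichondrial-like cells (37.2%) was 0 when the time course was clustered together, since no cluster then took that name, and 61.5% for single cells with at least 3 markers, a class of 15.8% of all cells. At E11.5 edgeR called 4050 genes higher and 3990 lower in sorted cells, DESeq2 2042 and 2864, and edgeR without the low-count filter 1883 and 2040, and 6 rather than 7 members were called by the latter 2 and by limma-voom. Leaving out either whole limb library gave a median member log2 fold between -1.69 and -1.53, as values with no test. Of 203 values of single genes or libraries 172 were the same, 28 moved and 3 lost their call, all *Sp7*. The automatic doublet threshold marked 296 cells in E16.5 proximal and at most 4 in each other library, and was not used. Leaving out the highest-scoring cells at an expected rate, and the 2 *Ibsp*-rich cells, were alternatives chosen after seeing the data. Without the former *Ibsp* was at 4.32 CPM in E16.5 proximal. No paired analysis was possible, because the labels pair no sorted library with a whole limb one and E11.5 had only 1 sorted library. *Sp7* had 20 to 172 UMIs per library, which limits its precision.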
